A study of Equus caballus with 2 samples.

Results

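Windows of the horse genome in which the sarcoid library was unusually deep or shallow, relative to the skin library and to the rest of the same chromosome, are described here. For each fixed window of 1 Mb with at least 50 CpGs listed in both libraries (shared CpGs), the reads over those CpGs were summed, and log2 of sarcoid over skin reads was taken minus the median window of its chromosome. This value is called the adjusted log2 ratio. Windows beyond 0.3 either way, a depth at least 1.23-fold above or at most 0.812 times the chromosome median, were the members: 294 of 2105 windows (14.0%), of which 239 (11.4%) were higher and 55 (2.61%) lower in the sarcoid. The members were chosen by these depths, so their ratios are a description, and nothing is read from how many there are. They held 49473 shared CpGs, 4.57% of those in the windows measured.

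DNA methylation had been profiled by reduced representation bisulfite sequencing (RRBS) in 1 sarcoid, a fibroblastic skin tumour of horses associated with bovine papillomavirus, and in 1 sample of skin distant from the tumour, both from horse 1. No treatment, age, breed or genotype is given by the labels used here. The libraries held 48650606 reads over cytosines in skin and 35970547 in sarcoid, with medians of 30 and 24 reads per CpG. With 1 library per tissue there is no replicate, so every difference is between these 2 libraries. Tissue was used whole, so a larger shift in a share of the cells and a smaller shift in all cells cannot be told apart. The labelled tissues could not be checked against marker genes in these data. The genome build is not given in the sources used here; coordinates are those of the deposited files, and no gene is named.

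Tumours gain and lose stretches of chromosomes, and a copy change raises or lowers the depth of every locus inside the stretch by about the same factor. Sequencing depth also depends on the base composition, length and methylation of the fragments. In RRBS the enzyme MspI cuts at CCGG, so that reads pile up on CpG-rich fragments, and bisulfite turns unmethylated C into T, so that fragments of unlike methylation also differ in base composition when they are amplified. A window of few CpGs therefore rests on few fragments. In a pure diploid sample, a gain from 2 to 3 copies in every cell would give a log2 ratio of 0.585, and a loss from 2 to 1 copies would give -1.

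The adjusted log2 ratios of the 239 higher windows ran from 0.30 to 1.12 with a median of 0.46, and those of the 55 lower windows from -0.65 to -0.30 with a median of -0.35. The value for 1 gained copy was reached by 59 windows, which held a median of 65 shared CpGs and at most 215. That for 1 lost copy was reached by 0 windows. At the upper threshold, chromosome 18 from 41000001 to 42000000 lay just inside at 0.302 and chromosome 3 from 48000001 to 49000000 just outside at 0.2999. At the lower threshold, chromosome 19 from 59000001 to 60000000 lay just inside at -0.302 and chromosome 21 from 56000001 to 57000000 just outside at -0.298. Members near the thresholds thus merge without a gap into the windows around them.

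The higher windows were poor in CpGs, and the lower windows were less so. Higher windows held a median of 89 shared CpGs (range 50 to 357), lower windows 257 (65 to 3031) and the 1811 other windows 332. Of 339 windows with 50 to 99 shared CpGs, 141 (41.6%) were higher and 6 (1.77%) lower. Of 434 windows with 100 or more but under 200 CpGs, 72 (16.6%) were higher and 17 (3.92%) lower, and of 693 with 200 or more but under 500 CpGs, 26 (3.75%) were higher and 19 (2.74%) lower. Among 359 windows with 500 or more but under 1000 CpGs 0 were higher and 8 (2.23%) lower, and among 280 with 1000 or more 0 were higher and 5 (1.79%) lower. Counts of higher windows fell from class to class, while the share of lower windows stayed between 1.77% and 3.92%.

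**Figure D1:**
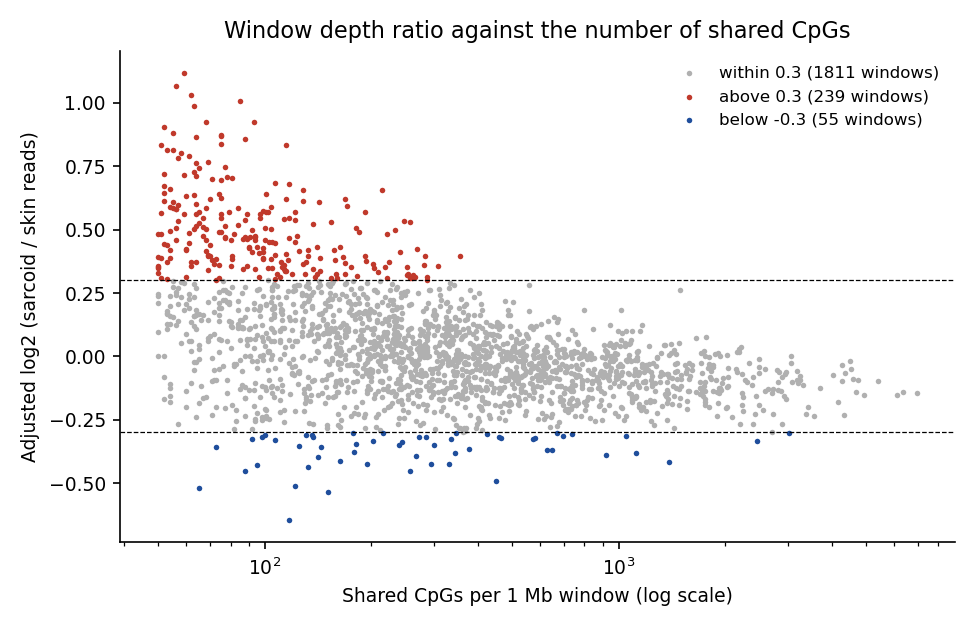
Adjusted log2 ratio of sarcoid to skin reads (vertical axis) against the number of shared CpGs (horizontal axis, log scale), with 1 point for each of the 2105 windows of 1 Mb; dashed lines mark 0.3 and -0.3. The cloud is wide and shifted upward at few CpGs and narrow at many, and no higher window (red) holds more than 357 CpGs, whereas lower windows (blue) reach 3031.

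The whole distribution, not only its edge, moved with the number of CpGs. The median adjusted log2 ratio was 0.22 (SD 0.31 over windows) in the class of fewest CpGs, then 0.10 (SD 0.23), 0.0004 (SD 0.16) and -0.06 (SD 0.10), and -0.09 (SD 0.09) at 1000 CpGs or more. Across the 2105 windows, which share the same libraries, Spearman's rho between the ratio and the number of CpGs was -0.493. With the running median over windows of like CpG number subtracted, a setting chosen after seeing the data, 131 of the 239 higher windows stayed above 0.3 and 40 of the 55 lower windows stayed below -0.3. On that scale 132 windows in all lay above 0.3 and 95 below -0.3, a split of 58.1% higher against 81.3% by the rule itself. The part of CpG number in the single windows was not tested beyond this.

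CpG-poor tiles also had a higher ratio than CpG-dense ones, by an amount that depended on the summary. Over all 1 kb tiles with at least 10 reads in each library, without the 0.1% of CpGs with most coverage, the ratio of summed reads relative to the chromosome median was 0.12 (log2) in 84025 tiles listing 1 to 5 CpGs and -0.19 in 1382 tiles listing over 40. The median tile was at -0.10 and -0.23 in these classes and at -0.23 in tiles of 11 to 20 CpGs, so the sign for CpG-poor tiles depended on the summary. Higher windows held a median of 38.5% of their CpGs in tiles of at most 5 CpGs and 0% in tiles of over 20, lower windows 20.9% and 37.7%, and other windows 27.1% and 24.9%. Subtracting the ratio of each tile class left 205 of the 239 higher and 39 of the 55 lower windows beyond the threshold. More higher windows thus stayed members after the subtraction by tile density than after that by CpG number.

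Depth also followed methylation, here by the median tile. Tiles with a level of at least 80%, with both libraries pooled, had a median log2 ratio of -0.48 (37295 tiles), against -0.12 at under 20%, 0.12 at 20% to 40%, 0.13 at 40% to 60% and 0.005 at 60% to 80%. The class of highest methylation was lowest in the members too. In higher windows the medians were 0.38, 0.63, 0.65, 0.62 and -0.16 from the lowest to the highest class, and in lower windows they were -0.38, -0.12, -0.07, -0.15 and -0.61. In each of the 5 classes the tiles of higher windows lay above, and those of lower windows below, the tiles of other windows. The rule chose the windows by the sum of these same reads, so this order follows largely from the choice. With the ratio of each class of density and skin level subtracted, 194 higher and 36 lower windows stayed beyond the threshold.

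**Figure D2:**
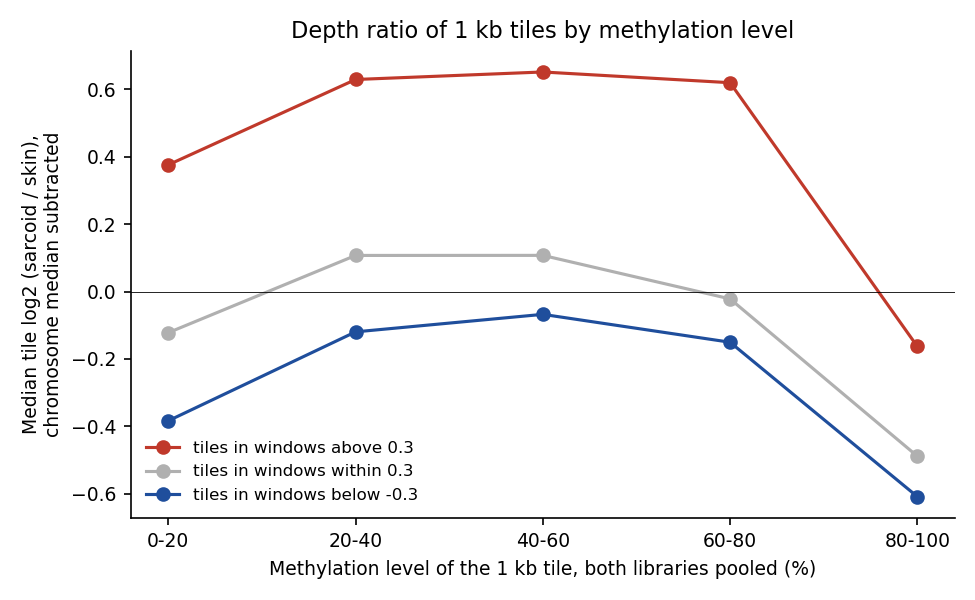
Median log2 ratio of sarcoid to skin reads of 1 kb tiles, relative to the chromosome median (vertical axis), by the methylation level of the tile over both libraries in percent (horizontal axis), for tiles in higher (red), lower (blue) and other (grey) windows. All 3 lines bend the same way and drop in the class of 80% to 100%, from 0.62 to -0.16 in higher windows and from -0.15 to -0.61 in lower windows.

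The higher windows differed from the others more in the depth of skin than in that of the sarcoid. Median reads per shared CpG in skin were 29.7 in higher windows, 49.7 in lower and 41.2 in other windows, and in the sarcoid they were 33.0, 30.7 and 31.1. The ratio is made of these same reads, so this only shows which library moved more between the sets. Skin depth was also lower in windows of few CpGs, members included. Its median was 33.3 reads per CpG in windows of 50 to 99 CpGs and 41.5 at 1000 or more. In the sarcoid these medians were 29.9 and 29.5. CpGs listed in 1 library alone were not used by the rule, but whether a CpG is listed may itself depend on depth. Of the CpGs listed in a window, a median of 7.62% were listed in the sarcoid alone in higher windows, 5.70% in lower and 4.94% in other windows. Those listed in skin alone made up 7.81%, 9.63% and 8.59%. These shares were not compared at like CpG number. With CpGs of either library counted, a setting chosen after seeing the data, 231 higher and 45 lower windows stayed members. That sum includes the reads that the rule used, so this was largely fixed by the choice.

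Methylation was not used by the rule, and the mean sarcoid minus skin difference was small in members and other windows alike. Mean levels were 47.9% in skin and 47.0% in sarcoid over 20140 CpGs of higher windows with at least 10 reads in both libraries, a difference of -0.981 points. In lower windows they were 44.2% and 43.5% over 19046 CpGs, a difference of -0.748 points, and over all 877053 CpGs the difference was -1.28 points. In windows of 50 to 99 CpGs, higher windows differed by -1.16 points and other windows by -0.878. From 200 to under 500 CpGs the differences were -1.02 points in higher, 0.272 in lower and -0.612 in other windows. At 1000 or more they were -1.75 points in lower and -1.85 in other windows. Differences of single members ran from -9.32 to 9.31 points in higher windows and from -5.81 to 6.60 in lower ones, inside the range of -11.4 to 18.4 points in the other windows.

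Methylated and unmethylated reads of each CpG were compared between the 2 libraries by a two-sided Fisher's exact test, and a CpG was called at a Benjamini-Hochberg q below 0.01 over all CpGs with a difference of at least 25 points. Over all 877053 CpGs 24910 (2.84%) met this, 16547 (1.89%) with less methylation in the sarcoid and 8363 (0.954%) with more. In higher windows 347 of 20140 (1.72%) were called, 249 lower and 98 higher. Lower windows had 447 of 19046 (2.35%), 291 lower and 156 higher. Both shares were below that over all CpGs, but the windows of few CpGs had fewer calls in general. Of CpGs in windows of 50 to 99 shared CpGs, 1.42% were called in higher and 1.33% in other windows. Lower windows had fewer calls than other windows in the 3 classes from 100 to under 1000 CpGs, with 1.16% against 1.74%, 1.47% against 2.12% and 1.38% against 2.43%. At 1000 or more, 3.90% were called in lower and 3.56% in other windows. These shares were not tested against each other. Median depths at the CpGs tested were 32 reads in skin and 36 in sarcoid for higher windows and 48 and 31 for lower ones, so precision differed between the sets.

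Levels themselves differed between the sets. The median window level in skin was 51.5% in higher, 32.4% in lower and 40.5% in other windows. Among windows of 200 to under 500 CpGs it was 39.8%, 27.6% and 36.2%, so part of the gap remained at like CpG number. The largest lower windows went the other way: at 1000 or more CpGs the medians were 59.0% in the 5 lower and 49.1% in other windows.

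Most members stood alone. Of the 239 higher windows 72 (30.1%) lay in 32 runs of at least 2 consecutive higher windows, and of the 55 lower windows 6 lay in 3 runs. The longest runs held 4 windows. Windows next to a higher window had a median adjusted log2 ratio of 0.11, with 277 of 407 (68.1%) above 0, 80 above 0.3 and 9 below -0.3. Windows next to a lower window had a median of -0.02, with 46 of 94 above 0, 9 above 0.3 and 6 below -0.3. Beside other windows, 9.28% of neighbours were above 0.3 and 2.31% below -0.3. The typical member was thus followed by a window near the chromosome median. Across 1963 adjacent pairs of windows Spearman's rho was 0.204.

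**Figure D3:**
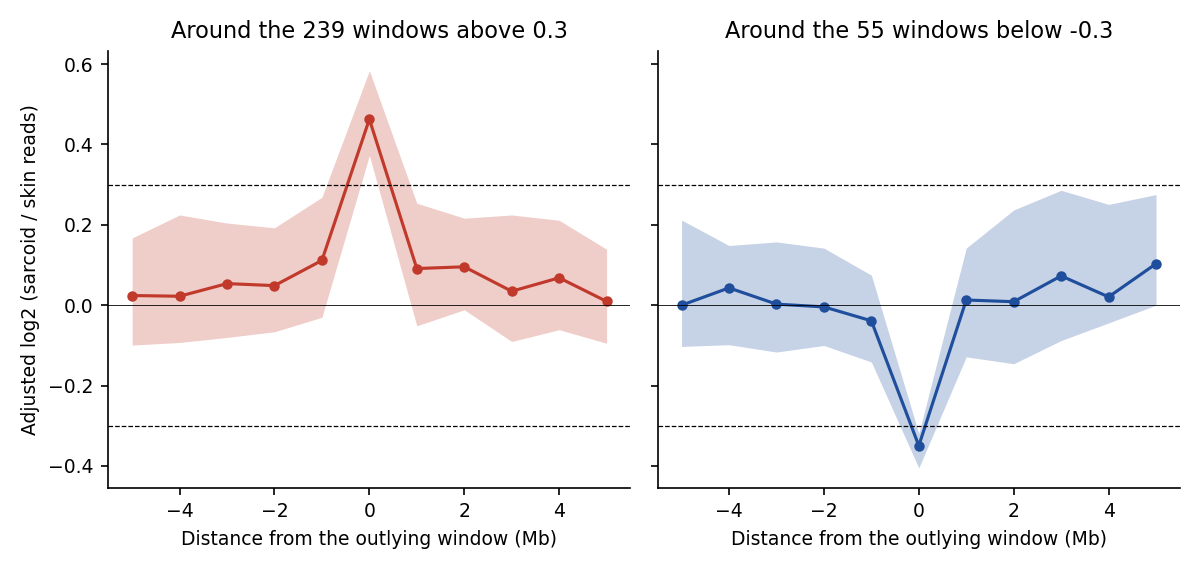
Adjusted log2 ratio (vertical axis) of windows up to 5 Mb on either side of a member (horizontal axis, distance in Mb), with the median as points and the middle 50% of windows as a band, for the 239 higher (left) and 55 lower windows (right); the dashed lines mark 0.3 and -0.3. The value at distance 0 is fixed by the rule; beside it the medians are 0.11 and 0.09 around higher windows and -0.04 and 0.01 around lower ones.

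In members whose 500 kb parts could both be measured, the parts were mostly shifted the same way. Parts and tiles are made of the reads that the rule summed, so this was largely fixed by the choice of members. Both 500 kb parts held at least 25 shared CpGs in 155 higher windows; both parts were above 0 in 142 and both above 0.3 in 80 (51.6%). In lower windows both parts were below 0 in 37 of 42 and below -0.3 in 14 (33.3%). A median of 68.0% of the 1 kb tiles lay above the chromosome median in higher windows, 37.0% in lower and 46.0% in other windows. The tile with most reads held a median of 22.5% of all reads in higher, 22.8% in lower and 14.1% in other windows. Members held fewer CpGs than other windows, and these shares were not compared at like CpG number. Without that tile, 160 of the higher and 36 of the lower windows stayed beyond the threshold. Spearman's rho between the plus-strand and minus-strand ratios was 0.559 across 1899 windows, and 0.158 between the 500 kb parts across 1821 windows.

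Higher windows occurred on all 31 chromosomes, from 3 to 17 on each, and lower windows on all but 10, with at most 7 on 1 chromosome. The share of members ran from 6.25% of windows on chromosome 16 to 24.3% on chromosome 18. On the 10 chromosomes with the highest median ratio (5, 6, 7, 12, 18, 21, 22, 25, 28 and 29), 12.1% of windows were higher and 2.68% lower, against 11.1% and 2.58% on the other 21, so outlying windows were about as frequent on both. Within 5 Mb of the first or last listed CpG of a chromosome lay 15 of the 239 higher windows (6.28%), 11 of the 55 lower windows and 18.7% of other windows. Within 1 Mb of those CpGs lay 5 higher (2.09%), 7 lower (12.7%) and 108 other windows (5.96%). Higher windows were thus less often near the ends than the other windows. The sets were not compared at like CpG number here, and the difference was not tested.

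**Figure D4:**
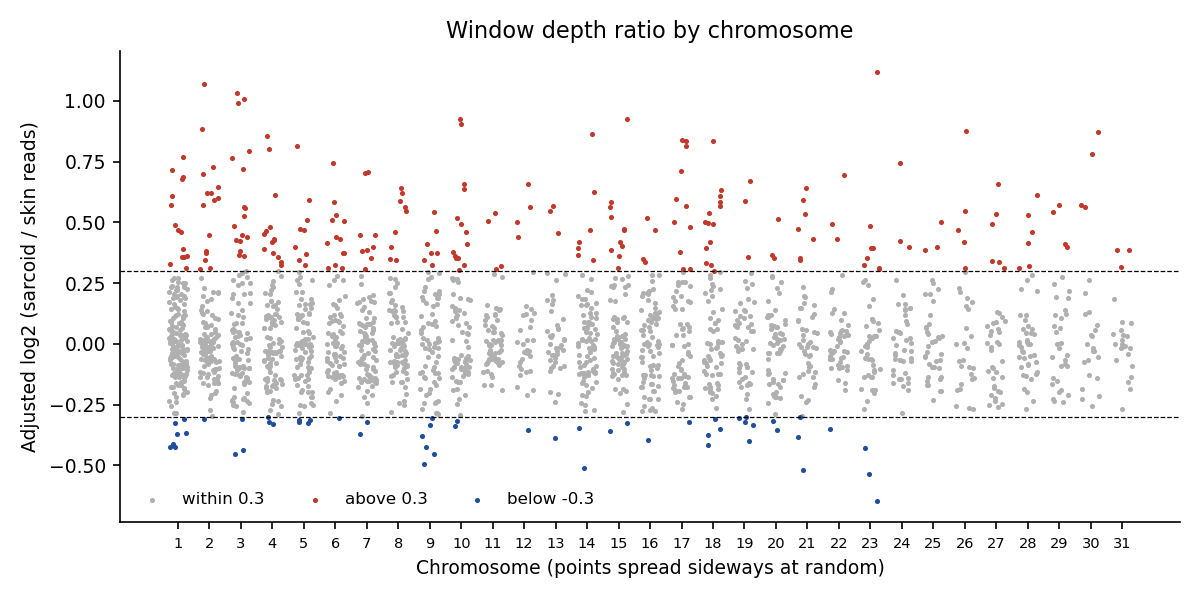
Adjusted log2 ratio (vertical axis) of every window on chromosomes 1 to 31 (horizontal axis, points spread sideways at random), with higher windows in red, lower in blue and others in grey. Red points are seen on every chromosome, from 3 to 17 each, and blue points are absent from 10 of them.

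The 8 highest windows held 52 to 93 shared CpGs each. The highest was chromosome 23 from 32000001 to 33000000, with 847 reads in skin and 1364 in sarcoid over 59 CpGs, which gave an adjusted log2 ratio of 1.12; 9 of its 10 tiles with enough reads were above the chromosome median. When 1 CpG per 75 bp was used, so that a read counts about once, it was 1.35 (exact 95% interval 1.15 to 1.56, for counting error only). The other windows of the 8 were at 0.76 to 1.04 in that setting, most of them lower than by the rule. The median over the 239 higher windows was then 0.40. On chromosome 2 from 110000001 to 111000000 the reads were 958 and 1424 over 56 CpGs (1.07), and 11 of 14 tiles were above. Chromosome 3 held 3 of the 8: the window from 93000001 to 94000000 (1.03, with 12 of 14 tiles above), that from 13000001 to 14000000 (1.01) and that from 70000001 to 71000000 (0.99, with 12 of 15 tiles). The one from 13000001 was the only one of the 8 with a low methylation level, 10.2% in skin and 10.4% in sarcoid for 54 CpGs; 9 of its 9 tiles were above. The rest were chromosome 15 from 61000001 to 62000000 (0.93), chromosome 10 from 32000001 to 33000000 (0.93) and from 54000001 to 55000000 (0.91). After subtraction of the running median by CpG number these 8 windows remained at 0.58 to 0.85.

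The 8 lowest windows were less far from their chromosomes. Chromosome 23 from 28000001 to 29000000 was lowest at -0.65, with 17560 reads in skin and 8325 in sarcoid over 117 CpGs. It rested on 1 tile, from 28045001 to 28046000, which held 64.8% of its reads over 11 CpGs, 12790 in skin and 3984 in sarcoid. Without that tile the window was at 0.29, and 10 of its 20 tiles were above the chromosome median. Chromosome 23 from 17000001 to 18000000 (-0.54), chromosome 21 from 34000001 to 35000000 (-0.52, over 65 CpGs) and chromosome 14 from 71000001 to 72000000 (-0.51) followed. Chromosome 9 from 29000001 to 30000000 was at -0.49 with 26 of 49 tiles above the chromosome median, and its parts were at -0.57 and 0.02. On chromosome 3 the windows from 83000001 to 84000000 (-0.45) and from 103000001 to 104000000 (-0.44) had low levels, 14.8% and 5.23% in skin, and 3 of 12 tiles above in each. Chromosome 9 from 72000001 to 73000000 (-0.45) is described with the stable windows.

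A few members held loci of very high coverage. Without the 0.1% of CpGs with most coverage, 236 of the 238 higher windows still measured and 49 of the 55 lower windows stayed members. Skin coverage reached 100 reads per CpG or more in 10 members (4 higher and 6 lower) and in 10 of the 1811 other windows; the limit was chosen after the values were seen. The deepest was chromosome 1 from 69000001 to 70000000, with 555470 reads in skin and 306781 in sarcoid over 648 CpGs (-0.37). A single tile, from 69176001 to 69177000, held 51.5% of its reads, and 121 CpGs of the window were listed in skin alone against 19 in sarcoid alone. Without that tile the window was at -0.32, and without the CpGs of most coverage it was at 0.01. On chromosome 13 from 26000001 to 27000000 (-0.39, with 234026 and 118867 reads over 918 CpGs) the first 500 kb were at 0.52 and the last at -0.41, 30 of 49 tiles were above, and without the CpGs of most coverage it was at -0.49. Chromosome 5 from 36000001 to 37000000 was at -0.31, or -0.27 without those CpGs, and 36 of its 75 tiles were above. Among the higher windows, chromosome 4 from 23000001 to 24000000 (0.80) had 88.7% of its reads in the tile from 23678001 to 23679000. There, 20213 reads in skin and 26285 in sarcoid covered 25 CpGs. Without the CpGs of most coverage the window was at 0.60. Only 3 of its 8 tiles with enough reads were above the chromosome median, and by the median of tiles it reversed to -0.198. On chromosome 7 from 63000001 to 64000000 (0.45) 1 tile held 84.0% of the reads. Without it the value was 0.57, and without the CpGs of most coverage 0.31. In the chromosome 4 window from 68000001 to 69000000 (0.43) 1 tile held 66.3% of the reads. That window fell to 0.15 without the tile and to 0.16 without the CpGs of most coverage. For chromosome 5 from 33000001 to 34000000 (0.47), where 1 tile held 77.3%, these values were 0.304 and 0.313. What these tiles hold was not analysed here.

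Runs were the nearest to broad stretches. On chromosome 4 from 87000001 to 91000000 the 4 windows were at 0.39, 0.42, 0.37 and 0.33, over 143, 157, 225 and 130 CpGs, and 16 of 26, 19 of 27, 21 of 37 and 14 of 18 tiles lay above the chromosome median. Their next neighbours were at 0.07 and 0.21. After subtraction of the running median by CpG number the 4 were at 0.30, 0.34, 0.33 and 0.21. On chromosome 18 from 25000001 to 29000000 the 4 windows were at 0.49, 0.63, 0.83 and 0.42, over only 51 to 75 CpGs each, and at 0.30, 0.36, 0.54 and 0.15 after that subtraction. The windows on either side of this run held too few shared CpGs to be measured. Runs of 3 higher windows lay on chromosome 1 from 176000001 to 179000000 (0.33 to 0.39), chromosome 3 from 68000001 to 71000000 (0.36 to 0.99), chromosome 10 from 42000001 to 45000000 (0.35 to 0.64) and chromosome 15 from 61000001 to 64000000 (0.40 to 0.93). After the subtraction by CpG number the run on chromosome 1 was at 0.02, 0.17 and 0.08 and that on chromosome 3 at 0.15, 0.42 and 0.70. The run on chromosome 10 was then at 0.31, 0.33 and 0.32 and that on chromosome 15 at 0.77, 0.32 and 0.25. Of the 6 runs of 3 or 4 windows, that on chromosome 10 alone kept every window above 0.3 in this setting. Its first window was at 0.22 with 1 CpG per 75 bp and at 0.12 against the 10 nearest windows. That window stayed above 0.3 in 7 of the 11 alternatives described below. The 26 other runs of higher windows were pairs. Chromosome 10 had 5 of the 32 runs of higher windows, and chromosomes 1, 4, 15 and 18 had 3 each.

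The 3 runs of lower windows were pairs of unlike kind. On chromosome 9 from 80000001 to 82000000 the windows were rich in CpGs, 3031 and 2455, and lay 2.56 and 1.56 Mb from the last listed CpG. With 123958 reads in skin and 77280 in sarcoid the first was at -0.30, and with 100690 and 61457 the second was at -0.33. The windows beside them were at -0.19 and -0.27, so the shift was shared with the windows around the pair; 125 of 422 and 98 of 336 tiles were above the chromosome median. Against windows of like CpG number they were at -0.11 and -0.14. On chromosome 5 from 14000001 to 16000000 (464 and 573 CpGs) both were at -0.32, with neighbours at -0.10 and -0.09, and against windows of like CpG number both were at -0.27. On chromosome 23 from 16000001 to 18000000 the windows were at -0.43 and -0.54 over 95 and 151 CpGs. Their neighbours were at 0.31 and 0.39, both higher windows themselves. Against windows of like CpG number the pair was at -0.52 and -0.60. In the first window the 250 kb stretches with CpGs were at -0.02, -0.49 and -0.12, with 764, 7637 and 263 reads in skin. In the second they were at 0.82, -0.51 and -0.75, over 9, 87 and 55 CpGs, with 282, 4672 and 3832 reads in skin. The deficit was thus uneven over the pair, though the stretch at 0.82 rests on few CpGs.

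Of the 294 members, 8 stayed beyond the threshold in the same direction in all 11 alternatives that kept the 1 Mb grid and the threshold. These alternatives included at least 200 shared CpGs per window, which 26 of the 239 higher and 32 of the 55 lower windows met, so members with fewer CpGs could not qualify. The direction of a member was also fixed by its choice.

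The 4 lower windows among them held 257 to 1388 CpGs. Chromosome 18 from 3000001 to 4000000 was at -0.42, with 68937 reads in skin and 47521 in sarcoid at 1388 CpGs, and 58 of 203 tiles were above the chromosome median. Its 4 stretches of 250 kb were at -0.19, -0.63, -0.24 and -0.37, and its neighbours at -0.06 and 0.11, so the deficit was within this window. Its mean methylation was 62.9% in skin and 57.0% in sarcoid over 1200 CpGs, with 74 CpGs called lower and 7 higher. In other windows of 1000 or more CpGs, 2.46% of CpGs were called lower and 1.10% higher. This difference was not tested. Chromosome 21 from 1 to 1000000, at the start of the chromosome, was at -0.38, with 71740 and 51070 reads over 1117 CpGs. Its 250 kb stretches with CpGs were at -0.19, -0.23 and -0.60, the window after it was at -0.14, and 41 of 125 tiles were above; by CpG number, the setting added later, it fell to -0.27. Chromosome 9 from 72000001 to 73000000 was at -0.45 (12993 and 7310 reads, 257 CpGs), with 250 kb stretches between -0.59 and -0.42 and 7 of 36 tiles above. The stretch at -0.59 held only 4 CpGs. Chromosome 1 from 20000001 to 21000000 was at -0.37 (18749 and 10395 reads, 377 CpGs). Its first 250 kb, with 8 CpGs, was at 0.76 and the others at -0.39, -0.38 and -0.39, and 13 of 60 tiles were above. Of its 325 CpGs tested 1 was called, against 2.12% in other windows of 200 to under 500 CpGs.

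The 4 higher windows among them held 215 to 270 CpGs. Chromosome 12 from 12000001 to 13000000 was at 0.66, with 7944 reads in skin and 10807 in sarcoid over 215 CpGs. Its 250 kb stretches were at 0.69, 0.95, 0.43 and 0.25 and 32 of 46 tiles lay above; the window before it was at -0.10 and the one after it at 0.44. Its mean level was 53.1% in skin and 48.6% in sarcoid over 177 CpGs, with 6 CpGs called lower and 0 higher. In other windows of 200 to under 500 CpGs, 1.25% of CpGs were called lower and 0.869% higher. Chromosome 21 from 7000001 to 8000000 was at 0.53 (8124 and 10917 reads, 247 CpGs) after a window at 0.43, and its 250 kb stretches were at -0.47, 0.50, 0.75 and 0.58. Without its tile of most reads it was at 0.30. Chromosome 3 from 61000001 to 62000000 was at 0.48 (5912 and 6085 reads, 221 CpGs), with 250 kb stretches at 0.08, 0.68, 0.59 and 0.68 and 26 of 31 tiles above. Chromosome 24 from 1 to 1000000, at the start of the chromosome, was at 0.42 (19043 and 18344 reads, 270 CpGs); 25 of 33 tiles were above, its 500 kb parts were at 0.42 and 0.43, and its level was 51.0% in skin and 46.6% in sarcoid.

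**Figure D5:**
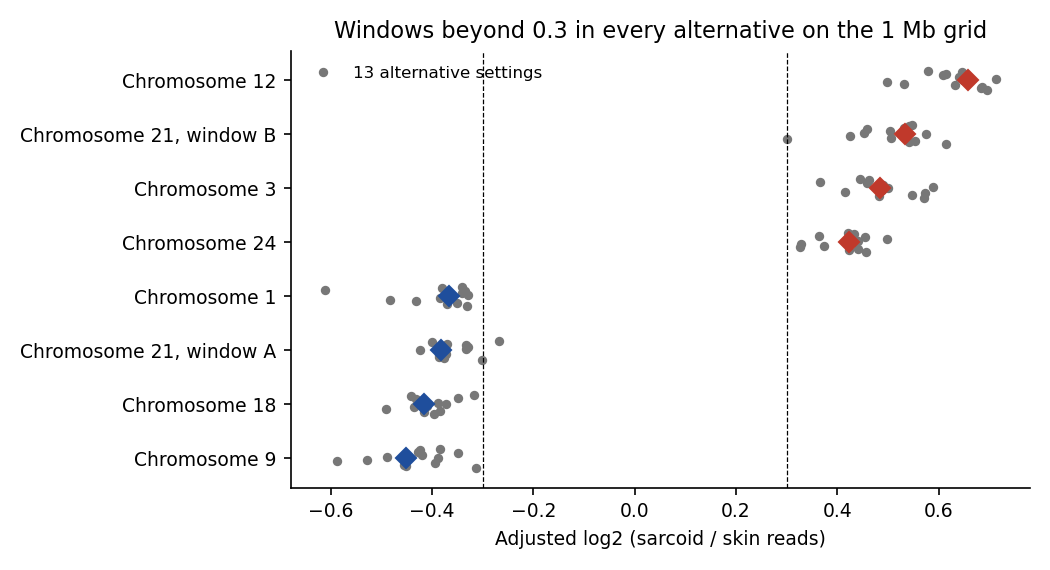
Adjusted log2 ratio (horizontal axis) of the 8 windows that stayed beyond 0.3 in the 11 alternatives on the 1 Mb grid, with the ratio by the rule as a diamond and 13 alternative settings, 2 of them chosen after seeing the data, as grey points; chromosome 21 window A starts at 1 and window B at 7000001. The chromosome 12 window runs from 0.50 to 0.71, and window A of chromosome 21 reaches -0.27 in the setting that adjusts for CpGs per window.

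Of the remaining members with at least 500 CpGs, all of them lower windows, chromosome 7 from 46000001 to 47000000 was at -0.37 with parts at -0.36 and -0.39 and 17 of 58 tiles above. Chromosome 19 from 31000001 to 32000000 was at -0.32 with parts at -0.31 and -0.34 and 40 of 105 tiles above. The latter was uneven at 250 kb, with stretches at -0.48, -0.21, -0.008 and -0.44, and neither window stayed beyond the threshold in every alternative.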

How the data were processed

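RRBS libraries of 1 sarcoid and 1 skin sample were sequenced with 75 bp single-end reads, per the labels' protocols; per the submitters' processing notes, FastQC, BSMAP and methylKit are among the tools, with no version or role given. The authors deposited, for each library, a read count (coverage) per cytosine of a CpG and strand with the percent of reads showing C and T, per the file headers. Strands of a CpG were merged and methylated reads were coverage times percent, rounded. Of 2255 windows with shared CpGs, 150 held under 50 and were left out. The members and named windows were chosen with earlier results of these data known. Named were the 8 highest and 8 lowest windows, runs (pairs of higher windows by count), the 8 members of largest ratio either way with at least 500 CpGs, members that held in every alternative on the grid (up to 12) and those next to the thresholds; deep windows were added after their values were seen. No depth test was possible with 1 library per tissue. The exact binomial and other counting intervals cover counting error only, and PCR copies could not be told from molecules, as the labels describe no molecular identifiers. CpG calls used Fisher's exact test with Benjamini-Hochberg adjustment, which compares libraries. Window and site code was tested on simulated data. The software was matplotlib 3.10.9, statsmodels 0.14.6, numba 0.67.0, SciPy 1.17.1, NumPy 2.4.6, pandas 2.3.3 and Python 3.11.15. The authors' table of chromosome 1 was not used here.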

Additional observations from a re-analysis of the deposited data

How the results depend on the processing

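By the rule 239 windows were higher, 55 lower and 35 runs were found. With 500 kb windows these counts were 413, 150 and 62, with 2 Mb windows 105, 15 and 11, with at least 200 shared CpGs 38, 14 and 3, with the median of tiles 394, 113 and 89, at a threshold of 0.5 98, 4 and 5, and with the running median by CpGs per window 132, 95 and 15. Lower windows numbered 36 with 1 CpG per 75 bp and 101 against the 10 nearest windows. The share of members that were higher was 81.3% by the rule, 67.6% against the nearest windows, 58.1% by CpGs per window (chosen after seeing the data) and 96.1% at a threshold of 0.5. The other settings stayed within 1.5 times of the counts by the rule. The mean methylation difference of higher windows was -1.18 points at CpGs with both strands and -2.25 points for summed reads. That of lower windows was -0.392, -0.607 and, as a mean over windows, -0.353 points. Other windows were not measured in these settings, so members cannot be set against them here. At 40 points 228 CpGs (1.13%) were called in higher and 260 (1.37%) in lower windows, against 1.90% over all CpGs tested. With both strands 215 of 11872 (1.81%) and 252 of 9007 (2.80%) were called, against 3.48% over all. Of the 54 windows followed singly, 4 reversed in 7 of 626 values: chromosome 1 from 69000001 without extreme coverage (0.0094), chromosome 9 from 29000001 (0.023) and chromosome 13 from 26000001 (0.22) by the median of tiles, and chromosome 23 from 28000001 without extreme coverage (0.295), without its tile of most reads (0.292), by the median of tiles (0.0093) and on the minus strand (0.212). In all, 17 of the 294 members reversed somewhere, among them chromosome 4 from 23000001 by the median of tiles (-0.198). Except where a tile or CpGs were left out, the cause was not tested. No paired analysis was possible because each tissue has 1 library. Windows of few CpGs rest on few fragments, which limits their precision.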
